A study of Mus musculus with 10 samples.

Results

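The complement genes of the mouse liver were followed in 10 livers profiled by bulk RNA-seq. They are the rows of the deposited gene count table whose symbol is in a list of 34 complement components, lectins, proteases, regulators and receptors, and all 34 symbols were found among its 55291 genes. The mice were 16 to 20 week old females that carry Cas9 behind a lox-stop-lox cassette. They received an AAV8 virus with a Cre gene driven by the hepatocyte promoter TBG and with either a non-targeting control guide (NTC) or 1 guide against Bap1 (sgBap1), so the cassette is meant to open in hepatocytes and other liver cells are meant to keep Bap1. Bap1 encodes a deubiquitinase of histone H2A. On day 10 each mouse was injected with CCl4, a solvent made toxic by hepatocyte cytochrome P450 and most damaging around central veins, as 1 part in 9 parts of olive oil, or with olive oil alone (Veh), and the liver was taken 48 hours later. The groups NTC-Veh and sgBap1-Veh held 2 livers each and the groups NTC-CCl4 and sgBap1-CCl4 held 3 each, every liver from a different mouse as the labels number them. The comparisons ask what CCl4 injury did to complement transcripts with either guide, what Bap1 loss did with either treatment, and whether the CCl4 effect depended on Bap1.

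Complement is a cascade of plasma proteins that tags and lyses targets. The classical pathway starts when C1q binds a target and activates the proteases C1r and C1s, the lectin pathway when mannose-binding lectins, ficolins or collectins do so with MASP proteases, and the alternative pathway amplifies C3 cleavage through factor B, factor D and properdin. All routes cleave C3 and then C5, releasing the small fragments C3a and C5a that leukocytes sense through receptors, and C5b to C9 assemble into a membrane pore. Hepatocytes secrete most of the plasma components, whereas C1q, properdin and the receptors come largely from macrophages and other leukocytes, and factor D from fat.

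Library depth was 33047900 to 52199900 estimated counts, and levels are given as TMM-scaled counts per 1000000 counts (CPM), on which 3 counts correspond to 0.0511 to 0.112 CPM. The targeted gene itself was at 34.8 and 34.8 CPM in the vehicle livers with NTC and 17.5 and 19.5 with sgBap1, and 30.1, 31.5 and 29.5 in the CCl4 livers with NTC and 17, 21.8 and 19.1 with sgBap1, lower in every sgBap1 liver than in every NTC liver. Hepatocyte markers were present in all 10 livers, with Alb, the gene of albumin, at 55036 to 116166 CPM. The liver of sgBap1-CCl4 replicate 2 stood apart, since the summed level of 6 adipocyte markers was 401 CPM there and 5.76 to 30.5 CPM in the other 9 livers. Its summed level was also the highest for 6 stellate cell markers, at 879.8 against 218 to 500.4 CPM, and for 5 mesothelial cell markers, at 18 against 0.49 to 14.6 CPM. Of the stellate cell markers, Col1a1 was at 402 CPM there. Lrat (21.9 CPM) and Reln (65.9 CPM) were not highest there, with 30.04 and 67.05 CPM in NTC-CCl4 replicate 2. This liver was also the lowest of the 3 sgBap1-CCl4 livers for 18 of the 18 members made mainly by hepatocytes, and results that rest on it are given with and without it. A call means an adjusted p under 0.05 in edgeR's quasi-likelihood test fitted over all 17015 genes that passed the filter on low counts, and 33 of the 34 members passed it. The exception was Cfd, factor D.

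Together the 34 genes took 1.76 to 2.0% of all counts in the vehicle livers and 1.88 to 2.11% in the CCl4 livers. C3, the central component, made up 44.6 to 55.4% of the counts of the 34 members in each liver. Per kb of the longest coding transcript, the mean level in NTC-Veh livers was 2321 CPM per kb for C3, followed by Mbl2 (901), Serping1 (567), Cfb (528), Cfi (423) and C4b (387). The ranges of the NTC-Veh livers did not overlap between C3 and Mbl2 or between Mbl2 and Serping1, but Serping1 (537 to 596 CPM per kb) was close to Cfb (525 to 531). The 3 C1q chains were at 26.9 to 30.9 CPM per kb and the receptors C3ar1, C5ar2 and C5ar1 at 0.616, 0.607 and 0.302 CPM per kb. In bulk samples, fewer cells of a type and less RNA per cell cannot be told apart.

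CCl4 moved complement genes in both directions. In NTC livers, 10 of the 33 tested members were higher with CCl4 and 14 lower, which is 30.3% and 42.4%, against 27.4% higher and 26.6% lower among all tested genes. In sgBap1 livers, 6 were higher and 16 lower, which is 18.2% and 48.5%, against 29% higher and 28% lower among all tested genes. The median log2 fold change over the members was -0.33 in NTC and -0.34 in sgBap1 livers, where the medians over all tested genes were 0.03 and 0.04. With TMM scaling, the calls in the higher direction were therefore near or below the share among all genes, and those in the lower direction above it. Of the members, 6 were called higher with both guides, 13 were called lower with both, and none was called in opposite directions. The share of all tested genes called alike with both guides was not computed, so these counts only describe the members.

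The directions differed between members grouped by the cell type generally known as their main source, which was not measured here. Of the 18 members made mainly by hepatocytes, 2 were called higher and 12 lower in NTC livers, where the members' median change was -0.62 on the log2 scale, and 2 were called higher and 11 lower in sgBap1 livers. Of the 8 made mainly by macrophages and other leukocytes, 7 were called higher and none lower in NTC livers (median 1.37), and 4 were called higher and 1 lower in sgBap1 livers. Of the 7 tested members from several or other cell types, 1 was called higher and 2 lower in NTC livers. In sgBap1 livers these were 0 and 4. Among all tested genes 27.4% were called higher and 26.6% lower in NTC livers, and 29% and 28% in sgBap1 livers. Most hepatocyte markers moved in the same direction as the hepatocyte members in NTC livers, where 5 of 8 were called lower and none higher. Fga and Fgb had positive log2 fold changes there, up to 0.48, without a call. The summed level of the markers was 140194 to 179102 CPM in NTC-Veh and 98319 to 106793 CPM in NTC-CCl4 livers. In sgBap1 livers 2 of the markers were called higher (Fga and Fgb) and 2 lower (Apoh and Serpina1a), with summed levels of 120666 to 129948 CPM in sgBap1-Veh and 83902 to 110038 CPM in sgBap1-CCl4 livers. Their part in the member values was not tested. The CCl4 directions depend on the scaling, since the TMM factors were 0.786 to 0.851 in vehicle and 1.08 to 1.24 in CCl4 livers. With library size alone the median of all genes moved to 0.50 in NTC and 0.52 in sgBap1 livers. The members then split into 12 higher and 8 lower in NTC and 11 higher and 12 lower in sgBap1 livers. These are 20 and 23 of 33 members called, where that scaling called 62.1% and 64.7% of all tested genes. Those shares were not split by direction, so the higher and lower counts under that scaling cannot be set against all genes.

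**Figure D1:**
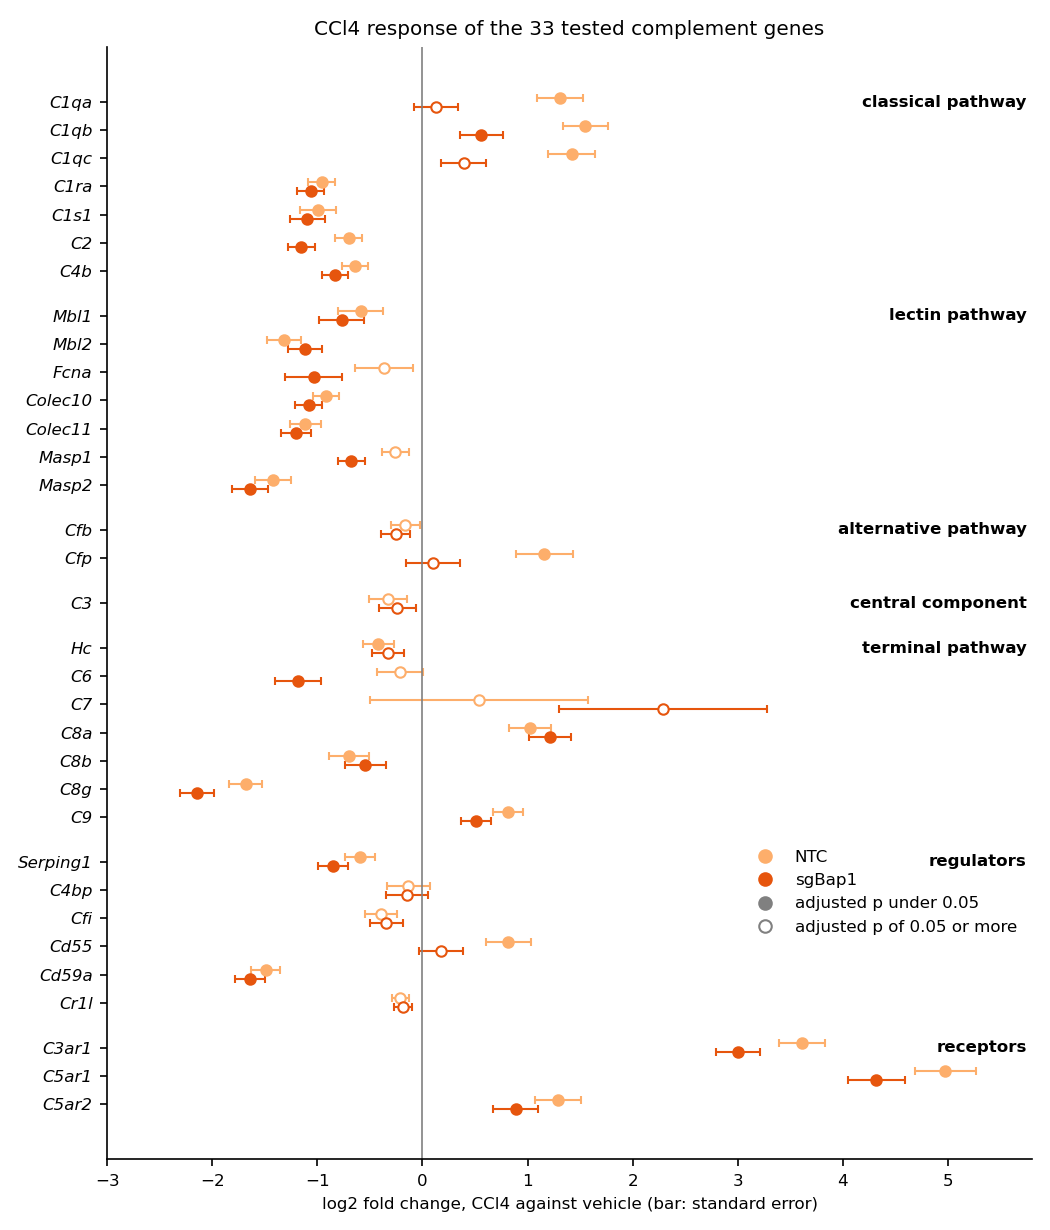
The plot gives the CCl4 effect as a log2 fold change (x axis, CCl4 against vehicle, bars are standard errors) for the 33 tested complement genes (y axis, grouped by role), in NTC (light) and sgBap1 livers (dark), with filled points where the adjusted p is under 0.05. C5ar1 and C3ar1 lie farthest to the right and C8g farthest to the left, while the C1q chains and Cfp lie further right in NTC than in sgBap1 livers.

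The recognition subunit of the classical pathway rose in NTC livers. C1q is built from 3 chains whose genes lie next to each other on the - strand of chromosome 4 (GRCm38), C1qb at chr4:136880129-136886187, - strand, C1qc at chr4:136889804-136893065, - strand and C1qa at chr4:136895917-136898803, - strand, with gaps of 3.62 and 2.85 kb. C1qa was at 35 and 26.9 CPM in the vehicle livers with NTC and 70.3 and 54.4 with sgBap1, and 72.7, 67 and 90.7 in the CCl4 livers with NTC and 52.6, 81.5 and 70.9 with sgBap1. C1qb was at 37.4 and 29.8 CPM in the vehicle livers with NTC and 74.6 and 55.1 with sgBap1, and 88.2, 92.7 and 114 in the CCl4 livers with NTC and 76.2, 118 and 92.6 with sgBap1. C1qc was at 36.9 and 27.9 CPM in the vehicle livers with NTC and 71.2 and 50.002 with sgBap1, and 78.1, 80.1 and 102 in the CCl4 livers with NTC and 64.2, 96 and 78.2 with sgBap1. For each chain, every NTC-CCl4 liver was above every NTC-Veh liver, and for C1qb and C1qc the sgBap1-Veh livers lay between them. For C1qa 1 of the 2 sgBap1-Veh livers was within the range of the NTC-CCl4 livers. The CCl4 effect in NTC livers was 1.31 (adjusted p = 0.000699, SE 0.22) on the log2 scale for C1qa, 1.55 (adjusted p = 0.000216, SE 0.21) for C1qb and 1.42 (adjusted p = 0.000512, SE 0.22) for C1qc. In sgBap1 livers the same effect was 0.13 (adjusted p = 0.613) for C1qa and 0.39 (adjusted p = 0.148) for C1qc, and the groups overlapped. By library size alone both were called higher there, at 0.617 (adjusted p = 0.0392) and 0.877 (adjusted p = 0.01). C1qb rose there by 0.56 (adjusted p = 0.0408, SE 0.21), with adjusted p = 0.114 without the liver that held adipocyte RNA. That call was also lost without sgBap1-Veh replicate 2 (adjusted p = 0.273), NTC-CCl4 replicate 2 (adjusted p = 0.0552) or sgBap1-CCl4 replicate 3 (adjusted p = 0.0674). Within a liver, the ratio of C1qb to C1qa per kb was 0.968 to 1.06 in the 4 vehicle livers and 1.16 to 1.39 in the 6 CCl4 livers, so that the ranges of the treatments did not overlap for chains that form one protein.

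The proteases and substrates that follow C1q fell. C1ra and C1s1, the genes of the proteases C1r and C1s, are neighbours on chromosome 6 that lie 6.9 kb apart on opposite strands. C1ra was at 383 and 416 CPM in the vehicle livers with NTC and 395 and 404 with sgBap1, and 211, 205 and 199 in the CCl4 livers with NTC and 187, 162 and 225 with sgBap1. C1s1 was at 596 and 641 CPM in the vehicle livers with NTC and 624 and 721 with sgBap1, and 327, 327 and 277 in the CCl4 livers with NTC and 297, 256 and 390.2 with sgBap1. Every CCl4 liver was below every vehicle liver for both, with log2 fold changes of -0.96 (adjusted p = 0.000133, SE 0.13) in NTC and -1.06 (adjusted p = 6.4e-05, SE 0.13) in sgBap1 livers for C1ra. For C1s1 they were -0.99 (adjusted p = 0.000645, SE 0.17) and -1.10 (adjusted p = 0.000321, SE 0.17). C2, which supplies the protease of the classical and lectin C3 convertase, was at 98.3 and 122 CPM in the vehicle livers with NTC and 128 and 120.1 with sgBap1, and 73.6, 63.7 and 65.5 in the CCl4 livers with NTC and 57.9, 47.8 and 61.8 with sgBap1. C4b, which encodes mouse C4, the other part of that convertase, was at 2161 and 1997 CPM in the vehicle livers with NTC and 2065 and 2293 with sgBap1, and 1341, 1333 and 1323 in the CCl4 livers with NTC and 1258, 1101 and 1309 with sgBap1. Both were lower in each CCl4 liver than in any vehicle liver, with log2 fold changes of -0.70 (adjusted p = 0.00102, SE 0.13) in NTC and -1.15 (adjusted p = 3.74e-05, SE 0.13) in sgBap1 livers for C2, and of -0.64 (adjusted p = 0.00173, SE 0.13) and -0.83 (adjusted p = 0.00031, SE 0.13) for C4b. With library size alone, C2 and C4b missed the threshold in NTC livers (adjusted p = 0.133 and 0.156).

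Some of these counts share sequence with other genes. Of the 50-base stretches of its transcripts, C1ra shares 50.8% with other genes, mostly with its copy C1rb, which stayed at or below 0.222 CPM, and C1s1 shares 35.1%, with C1s2 at or below 0.136 CPM. C4b shares 34.6% with C4a, which was at 2.93 to 6.89 CPM. C2 and Cfb share 41.5% and 73% with the read-through gene Gm20547, which ran from 0 to 17.8 CPM across livers without a steady level within groups, so a part of their counts could have been assigned to it. Masp2 shares 52.5% with Tardbp on the other strand, at 101 to 148 CPM, and without a statement that counting used the strand, reads of that overlap cannot be told apart.

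Of the 7 members of the lectin pathway, 5 were called lower in NTC livers and 7 in sgBap1 livers, and none was called higher. Among all genes 26.6% and 28% were called lower and 27.4% and 29% higher. Mbl1 and Mbl2 encode the mannose-binding lectins A and C. Mbl2, the second most abundant member per kb in NTC-Veh livers, was at 976 and 988 CPM in the vehicle livers with NTC and 818 and 1005 with sgBap1, and 411, 419 and 351 in the CCl4 livers with NTC and 394, 355 and 512 with sgBap1. Its level was lower in each CCl4 liver than in any vehicle liver, with log2 fold changes of -1.32 (adjusted p = 8.73e-05, SE 0.17) in NTC and -1.12 (adjusted p = 0.000247, SE 0.17) in sgBap1 livers, a fall of 2.49-fold and 2.17-fold. Mbl1 was at 167 and 154 CPM in the vehicle livers with NTC and 125 and 142 with sgBap1, and 110.1, 117 and 93.8 in the CCl4 livers with NTC and 88.8, 52.1 and 94 with sgBap1. Its log2 fold change was smaller, -0.59 (adjusted p = 0.0411, SE 0.21) in NTC and -0.77 (adjusted p = 0.012, SE 0.21) in sgBap1 livers. Neither call held by library size alone, at -0.113 (adjusted p = 0.591) and -0.305 (adjusted p = 0.148). The NTC call was lost without any 1 of the 7 NTC or sgBap1-Veh mice (adjusted p up to 0.173, without NTC-Veh replicate 1). The sgBap1 call was lost without sgBap1-Veh replicate 2 (adjusted p = 0.0846).

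The MASP-2 protease, which cleaves C4 and C2 for the lectin pathway, changed most within it. Masp2 was at 328 and 306 CPM in the vehicle livers with NTC and 313 and 367 with sgBap1, and 118, 126 and 111 in the CCl4 livers with NTC and 113, 82 and 132 with sgBap1. The groups did not overlap, and the log2 fold changes were -1.42 (adjusted p = 6.42e-05, SE 0.17) in NTC and -1.64 (adjusted p = 2.47e-05, SE 0.17) in sgBap1 livers. Masp1, whose product activates MASP-2, was at 204 to 229.9 CPM in the 4 vehicle livers and 113 to 187 in the 6 CCl4 livers, with -0.26 (adjusted p = 0.113) in NTC livers and -0.68 (adjusted p = 0.00114, SE 0.13) in sgBap1 livers. In NTC livers it was called lower without the liver that held adipocyte RNA, at -0.255 (adjusted p = 0.0347), and with only the mice of the 2 groups compared (adjusted p = 0.0488). By library size alone it was at 0.214 (adjusted p = 0.144) in NTC livers and its sgBap1 call was lost, at -0.205 (adjusted p = 0.153). The collectins Colec10 and Colec11, which bind sugars and associate with MASPs, were at 30.2 to 40.5 CPM in the 4 vehicle livers and 15.3 to 21 in the 6 CCl4 livers for Colec10 and 33 to 40.2 CPM in the 4 vehicle livers and 13.1 to 19.3 in the 6 CCl4 livers for Colec11. Both fell with either guide, with log2 fold changes in NTC and sgBap1 livers of -0.92 (adjusted p = 0.000171, SE 0.13) and -1.08 (adjusted p = 5.34e-05, SE 0.13) for Colec10, and of -1.11 (adjusted p = 0.000107, SE 0.14) and -1.21 (adjusted p = 5.89e-05, SE 0.14) for Colec11. Fcna, ficolin A, a lectin of macrophages, was at 40.5 and 30.5 CPM in the vehicle livers with NTC and 69.7 and 42.6 with sgBap1, and 24.1, 22.1 and 36.2 in the CCl4 livers with NTC and 22.1, 29.4 and 30.8 with sgBap1. In NTC livers the groups overlapped, at -0.37 (adjusted p = 0.288), whereas in sgBap1 livers it fell, with a log2 fold change of -1.04 (adjusted p = 0.0104, SE 0.27), from vehicle levels above those of every other liver. Without sgBap1-Veh replicate 1, its highest liver, that call was lost (adjusted p = 0.119), and it was also lost with library size alone (adjusted p = 0.109).

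Cfb and C3 did not pass edgeR's test with either guide. Cfb, factor B, was at 1445 and 1461 CPM in the vehicle livers with NTC and 1428 and 1465 with sgBap1, and 1389, 1229 and 1277 in the CCl4 livers with NTC and 1321, 1046 and 1267 with sgBap1, which gave -0.16 (adjusted p = 0.334, SE 0.13) in NTC and -0.26 (adjusted p = 0.127, SE 0.13) in sgBap1 livers. With library size alone its log2 fold change in NTC livers turned positive, at 0.31 (adjusted p = 0.0308). DESeq2's Wald test called it lower in sgBap1 livers, at -0.273 (adjusted p = 0.033). C3 was at 11520 and 12322 CPM in the vehicle livers with NTC and 11534 and 9692 with sgBap1, and 9723, 8904 and 9889 in the CCl4 livers with NTC and 10371, 8190 and 8399 with sgBap1. Its log2 fold changes were -0.33 (adjusted p = 0.146, SE 0.18) and -0.24 (adjusted p = 0.274, SE 0.18). DESeq2's Wald test called it lower in NTC livers (adjusted p = 0.0209), while its sign too was positive with library size alone. Cfp, properdin, which stabilises the alternative convertase and is made by leukocytes, was at 28.2 and 17.4 CPM in the vehicle livers with NTC and 44.9 and 38.4 with sgBap1, and 44.7, 40.9 and 67.4 in the CCl4 livers with NTC and 37.4, 51.9 and 44.7 with sgBap1. It rose by 1.16 (adjusted p = 0.00564, SE 0.27) in NTC livers, where the groups did not overlap, and the change in sgBap1 livers was 0.10 (adjusted p = 0.766).

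The terminal pathway held the sharpest split. C8 is assembled from an alpha, a beta and a gamma chain encoded by C8a, C8b and C8g, and CCl4 moved the 3 genes apart. C8a was at 335 and 376 CPM in the vehicle livers with NTC and 260.2 and 361 with sgBap1, and 781, 712 and 679 in the CCl4 livers with NTC and 773, 548 and 834 with sgBap1. C8b was at 201 and 193 CPM in the vehicle livers with NTC and 119 and 165 with sgBap1, and 127, 118 and 119 in the CCl4 livers with NTC and 104, 70.9 and 117 with sgBap1. C8g was at 299 and 267 CPM in the vehicle livers with NTC and 377 and 336 with sgBap1, and 85.4, 84.1 and 95 in the CCl4 livers with NTC and 86.3, 61.5 and 94.1 with sgBap1. Each CCl4 liver exceeded each vehicle liver for C8a, and each was below each vehicle liver for C8g, while C8b overlapped between treatments as a whole but not within a guide. C8a rose by 1.03 (adjusted p = 0.00148, SE 0.20) in NTC and 1.21 (adjusted p = 0.000516, SE 0.20) in sgBap1 livers on the log2 scale, which is 2.04-fold and 2.31-fold. C8g fell 3.21-fold and 4.42-fold, with log2 fold changes of -1.68 (adjusted p = 1.52e-05, SE 0.16) and -2.15 (adjusted p = 3.8e-06, SE 0.16), the lowest among the tested members. C8b fell too, with -0.70 (adjusted p = 0.0118, SE 0.19) and -0.54 (adjusted p = 0.0358, SE 0.19). By library size alone C8b was not called, at -0.223 (adjusted p = 0.242) in NTC and -0.0743 (adjusted p = 0.699) in sgBap1 livers. The C8b calls were also lost when either NTC-Veh mouse was left out in NTC livers (adjusted p = 0.0644 and 0.0502), and in sgBap1 livers at adjusted p = 0.335 without sgBap1-Veh replicate 2 and 0.055 without the liver with adipocyte RNA. The sgBap1 call was also lost without either NTC-Veh mouse (adjusted p = 0.0545 and 0.0544) and without NTC-CCl4 replicate 1 or 3 (adjusted p = 0.0503 and 0.0507). Without sgBap1-CCl4 replicate 1 it was lost too (adjusted p = 0.0513).

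Ratios within a liver do not depend on the scaling between livers. The ratio of C8a to C8g per kb was 0.356 and 0.448 in NTC-Veh, 0.22 and 0.341 in sgBap1-Veh, 2.91, 2.69 and 2.27 in NTC-CCl4 and 2.85, 2.84 and 2.82 in sgBap1-CCl4 livers. C8g was thus the more abundant chain transcript in all 4 vehicle livers and C8a in all 6 CCl4 livers. The ratio of C8a to C8b per kb went from 1.03 to 1.36 to 3.53 to 4.79, again without overlap. These ratios are a description of values chosen after the fold changes were known.

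**Figure D2:**
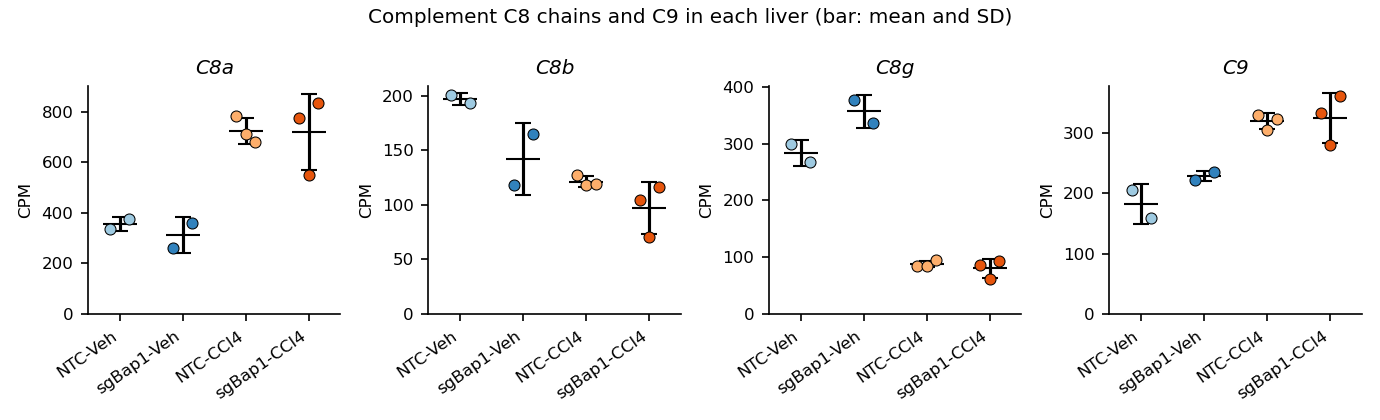
Each panel plots the CPM (y axis) of C8a, C8b, C8g or C9 in every liver by group, with the bar at the mean and the whiskers at 1 SD. C8a and C9 are higher and C8g is lower in each CCl4 liver than in any vehicle liver.

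C8a and C8b are neighbours on chromosome 4, C8b at chr4:104766317-104804548, + strand and C8a at chr4:104815679-104876398, - strand, so they are transcribed toward each other with 11.1 kb between their ends, whereas C8g is on chromosome 2 (chr2:25498651-25501719, - strand). Because these chains moved in different directions, the RefSeq (GRCm38.p6) sequences just upstream of their annotated starts are shown, as chr4:104876399-104876648 on the - strand for C8a, chr4:104766067-104766316 on the + strand for C8b and chr2:25501720-25501919 on the - strand for C8g, the last kept to 200 bases because an exon of Fbxw5 begins beyond. Capitals mark matches to TTCNNNGAA, the letters that STAT factors bind, and to GTTAAT, part of the HNF1 site, on either strand.
C8a: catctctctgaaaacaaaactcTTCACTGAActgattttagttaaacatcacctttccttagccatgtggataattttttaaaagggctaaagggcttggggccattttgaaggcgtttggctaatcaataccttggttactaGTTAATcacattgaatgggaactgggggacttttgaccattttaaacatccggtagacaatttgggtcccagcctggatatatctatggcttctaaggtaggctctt
C8b: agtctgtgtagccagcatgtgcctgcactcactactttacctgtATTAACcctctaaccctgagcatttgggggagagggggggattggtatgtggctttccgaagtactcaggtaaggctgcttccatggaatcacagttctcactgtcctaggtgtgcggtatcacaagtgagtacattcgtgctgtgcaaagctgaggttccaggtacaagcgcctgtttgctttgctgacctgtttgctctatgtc
C8g: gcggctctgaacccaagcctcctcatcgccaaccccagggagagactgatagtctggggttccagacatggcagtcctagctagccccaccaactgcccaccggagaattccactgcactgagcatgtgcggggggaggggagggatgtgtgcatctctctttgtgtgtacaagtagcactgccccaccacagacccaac
The C8a window holds the STAT letters 228 bases before the start and the HNF1 letters 107 bases before it, the C8b window holds the HNF1 letters at 206 bases, and the C8g window holds neither. RefSeq gives 2 windows for C8g, of which 1 is shown. Letters of the TATA box and of the C/EBP, PU.1 and NF-kB sites were also searched for, and none is in the windows shown. Over the 250 bases upstream, the STAT letters were found in 4 of the 26 members with a RefSeq promoter (Colec11, Masp2, C7 and C8a) and in 7.02% of 32851 mouse promoters, and the HNF1 letters in 7 of 26 members and in 6.43% of all promoters. The C/EBP letters were in 4 of 26 members, C9 among them, and in 9.56% of all promoters. Of the other members with the STAT letters, Colec11 and Masp2 were called lower with CCl4, and C7 was not called by edgeR's test. Whether the letters play a part in any of these changes was not tested. A match in a window is a description of its letters.

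The pore-forming C9 rose with C8a. C9 was at 205 and 159 CPM in the vehicle livers with NTC and 222 and 235 with sgBap1, and 330.2, 305 and 324 in the CCl4 livers with NTC and 334, 279 and 362 with sgBap1, and every CCl4 liver was above every vehicle liver. Its log2 fold change was 0.81 (adjusted p = 0.000771, SE 0.14) in NTC and 0.51 (adjusted p = 0.0105, SE 0.14) in sgBap1 livers, the latter with adjusted p = 0.07 when sgBap1-Veh replicate 1 was left out. Hc, the mouse gene of C5, was at 1094 and 1114 CPM in the vehicle livers with NTC and 1004 and 947 with sgBap1, and 834, 805 and 838 in the CCl4 livers with NTC and 891, 619 and 822 with sgBap1. With the NTC guide it was lower in the CCl4 livers, with a log2 fold change of -0.42 (adjusted p = 0.0362, SE 0.15), a call that was lost without any 1 of the 7 NTC or sgBap1-Veh mice (adjusted p up to 0.135) and whose direction turned with library size alone (0.05, adjusted p = 0.723). In sgBap1 livers the change of Hc was -0.33 (adjusted p = 0.0853), with adjusted p = 0.0447 without sgBap1-CCl4 replicate 1. C6, which joins C5b in the pore, was at 13.7 and 9.14 CPM in the vehicle livers with NTC and 20.8 and 22.4 with sgBap1, and 11.1, 7.91 and 10.7 in the CCl4 livers with NTC and 8.56, 8.08 and 11.9 with sgBap1. The 2 sgBap1-Veh livers were the highest, and C6 fell with CCl4 in sgBap1 livers, with a log2 fold change of -1.18 (adjusted p = 0.00105, SE 0.22), but gave -0.21 (adjusted p = 0.444) in NTC livers. C7 was at 0.338 to 6.38 CPM over all livers and gave 0.54 (adjusted p = 0.688) in NTC and 2.29 (adjusted p = 0.0776) in sgBap1 livers. Its highest value came from the liver with adipocyte RNA and the highest summed stellate cell markers, where single markers of that list differed. Without that liver the log2 fold change of C7 in sgBap1 livers was 1.38 (adjusted p = 0.205). Without sgBap1-CCl4 replicate 3 it was 2.7 (adjusted p = 0.0198), and by library size alone 2.81 (adjusted p = 0.0434).

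Regulators protect host cells and limit the cascade. Cd59a, the main mouse gene of CD59, which blocks C9 insertion at the cell surface, was at 58.3 and 61 CPM in the vehicle livers with NTC and 57.3 and 75.4 with sgBap1, and 19.7, 24.6 and 19.3 in the CCl4 livers with NTC and 21.3, 19.4 and 23.2 with sgBap1. The fall in every CCl4 liver was 2.82-fold in NTC and 3.12-fold in sgBap1 livers, with log2 fold changes of -1.49 (adjusted p = 1.41e-05, SE 0.14) and -1.64 (adjusted p = 7.5e-06, SE 0.14). Serping1, the inhibitor of C1r, C1s and MASPs, was at 1053 and 950.3 CPM in the vehicle livers with NTC and 1045 and 1117 with sgBap1, and 711, 629 and 652 in the CCl4 livers with NTC and 629, 497 and 670.4 with sgBap1. It was lower in each CCl4 liver than in any vehicle liver, with log2 fold changes of -0.59 (adjusted p = 0.00517, SE 0.14) and -0.85 (adjusted p = 0.000536, SE 0.14), but gave adjusted p = 0.367 in NTC livers with library size alone. Cd55, a membrane protein that dissolves C3 convertases, was at 13.8 and 11.9 CPM in the vehicle livers with NTC and 19.7 and 15.5 with sgBap1, and 23.1, 16.4 and 28.4 in the CCl4 livers with NTC and 18.4, 22.5 and 18.9 with sgBap1. In NTC livers it rose by 0.82 (adjusted p = 0.00901, SE 0.21), with adjusted p = 0.0779 without NTC-Veh replicate 2, and in sgBap1 livers the change was 0.18 (adjusted p = 0.49), or 0.663 (adjusted p = 0.03) by library size alone. The remaining regulators were not called. C4bp, the C4b-binding cofactor, gave -0.13 (adjusted p = 0.602) and -0.15 (adjusted p = 0.556), Cfi, the protease factor I that inactivates C3b and C4b, gave -0.39 (adjusted p = 0.054) and -0.34 (adjusted p = 0.0833), and Cr1l, the rodent membrane regulator Crry, gave -0.21 (adjusted p = 0.0543) and -0.19 (adjusted p = 0.0775), in NTC and sgBap1 livers. All 3 had the opposite sign with library size alone, and Cr1l was then called higher, at 0.26 (adjusted p = 0.0337) and 0.29 (adjusted p = 0.02). DESeq2's Wald test called Cr1l lower in NTC livers (adjusted p = 0.0463), as did a filter at a mean of 10 counts (adjusted p = 0.0477). DESeq2 called Cfi lower with both guides (adjusted p = 0.0204 and 0.0374). Cfi in NTC livers was also called lower with no filter (adjusted p = 0.0489), with the 2 groups alone (adjusted p = 0.0108) and without sgBap1-CCl4 replicate 2 or 3 (adjusted p = 0.0106 and 0.0351). In sgBap1 livers it was called lower without sgBap1-CCl4 replicate 3 (adjusted p = 0.0228).

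All 3 receptors for the C3a and C5a fragments rose, and C5ar1 and C3ar1 had the largest fold changes of the 33 tested members with both guides. C5ar1, the main C5a receptor of neutrophils and macrophages, was at 1.03 and 0.499 CPM in the vehicle livers with NTC and 1.53 and 1.27 with sgBap1, and 21.3, 25.8 and 25.6 in the CCl4 livers with NTC and 28.5, 33.9 and 22.4 with sgBap1. C3ar1, the C3a receptor, was at 2.67 and 2.63 CPM in the vehicle livers with NTC and 4.6 and 3.78 with sgBap1, and 30.2, 31 and 36.3 in the CCl4 livers with NTC and 33.4, 41.9 and 25.8 with sgBap1. Vehicle and CCl4 livers were far apart for both, with C5ar1 31.5-fold higher in NTC and 19.97-fold higher in sgBap1 livers, and C3ar1 12.2-fold and 8.0-fold higher. On the log2 scale these were 4.98 (adjusted p = 1.91e-06, SE 0.29) and 4.32 (adjusted p = 2.1e-06, SE 0.27) for C5ar1, and 3.61 (adjusted p = 1.99e-06, SE 0.22) and 3.00 (adjusted p = 3.08e-06, SE 0.21) for C3ar1. C5ar2, a C5a receptor that does not couple to G proteins, lies 2.59 kb from C5ar1 on the same strand of chromosome 7 and was at 2.61 and 1.55 CPM in the vehicle livers with NTC and 3.04 and 2.58 with sgBap1, and 5.27, 4.43 and 5.6 in the CCl4 livers with NTC and 5.38, 5.39 and 4.91 with sgBap1. Its rise was 1.29 (adjusted p = 0.000671, SE 0.22) and 0.89 (adjusted p = 0.00498, SE 0.21), with each CCl4 liver above each vehicle liver. Markers of monocytes and recruited macrophages rose in the same livers, with 7 of 7 called higher with both guides. Their summed level ranged over 44.4 to 51 CPM with NTC and 45.5 to 51.5 CPM with sgBap1 after vehicle. After CCl4 it ranged over 333 to 420.2 CPM with NTC and 410.3 to 578 CPM with sgBap1. A large part of it was Spp1, at 37.1 to 43.6 CPM after vehicle. Spp1 was at 180 to 234 CPM in NTC-CCl4 and 260 to 352 CPM in sgBap1-CCl4 livers. Between the guides after CCl4 none of the 7 markers was called, with 4 positive and 3 negative log2 differences. Of 7 neutrophil markers 5 were tested and 4 were called higher with both guides, from a summed level of 3.69 to 6.62 CPM in NTC-Veh to 16.6 to 22 CPM in NTC-CCl4 livers. The part of these cells in the receptor values was not tested.

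**Figure D3:**
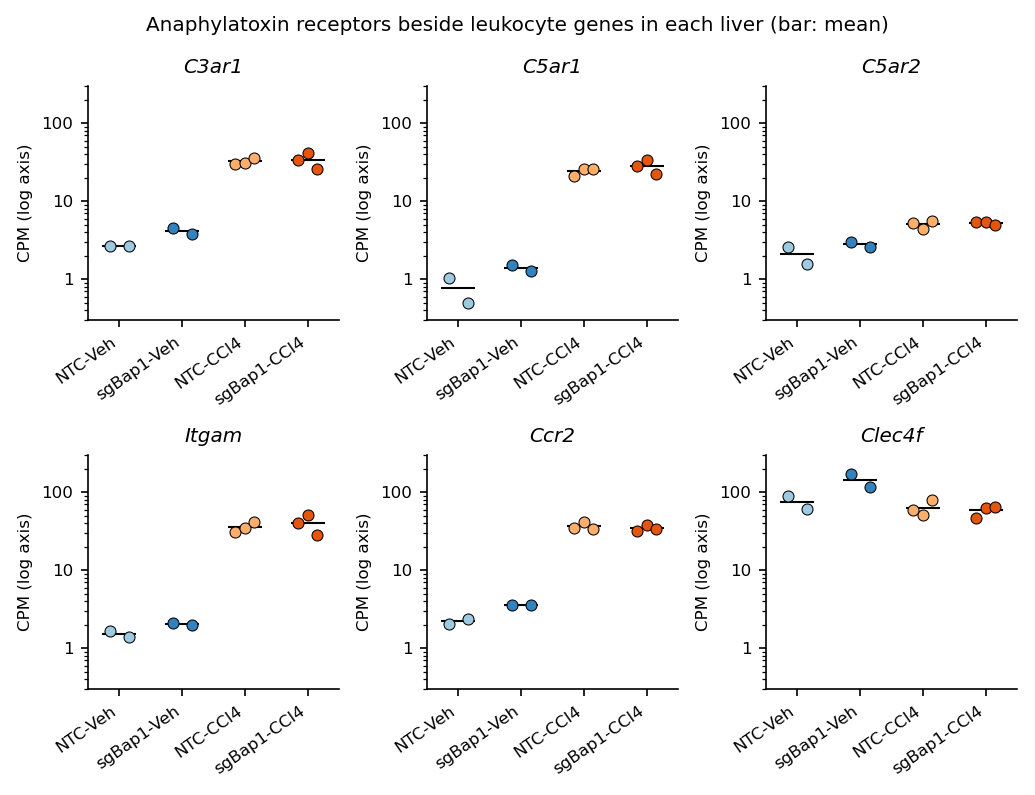
CPM on a log axis (y) of the 3 anaphylatoxin receptor genes, of the leukocyte genes Itgam and Ccr2 and of the Kupffer cell marker Clec4f in every liver by group, with the bar at the mean. The receptors, Itgam and Ccr2 are higher in all 6 CCl4 livers than in the 4 vehicle livers, and Clec4f is highest in the sgBap1-Veh livers.

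Of 23 other complement genes outside the 34, 19 were tested, and in both NTC and sgBap1 livers 4 were called higher and 10 lower with CCl4. The 21.1% called higher were below the 27.4% and 29% among all genes, and the 52.6% called lower above the 26.6% and 28%. The 4 higher ones were the complement receptor integrins Itgam (4.55 and 4.28 on the log2 scale in NTC and sgBap1 livers), Itgax (3.33 and 2.64) and their shared beta chain Itgb2 (3.31 and 2.27), and the membrane lectin Cd93 (3.20 and 3.39). The lower ones included 3 factor H-related genes, both chains of carboxypeptidase N and vitronectin. 

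Bap1 loss left no member past the threshold. Between sgBap1-Veh and NTC-Veh livers 0 of 33 members were called, where 0.406% of all tested genes were, and between sgBap1-CCl4 and NTC-CCl4 livers also 0 of 33, where 0.329% of all genes were. At an unadjusted p under 0.05, 7 members passed with vehicle (12.3% of all genes) and 3 with CCl4 (14% of all genes). DESeq2's Wald test called 5 members higher with vehicle, C1qa, C1qb, C1qc, Cfp and C6, and 1 lower with CCl4, Masp1. That test called 3.3% of all genes with vehicle and 2.95% with CCl4. With CCl4 the median log2 difference of the members was -0.06.

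The 5 members that DESeq2 called with vehicle were higher in both sgBap1 livers. With vehicle, C1qa was 2.02-fold higher with the Bap1 guide, with a log2 difference of 1.01 (adjusted p = 0.0996, SE 0.23), and each sgBap1-Veh liver was above each NTC-Veh liver. The log2 difference was 0.95 (adjusted p = 0.111, SE 0.23) for C1qb, 0.90 (adjusted p = 0.14, SE 0.24) for C1qc, 0.87 (adjusted p = 0.251, SE 0.29) for Cfp and 0.91 (adjusted p = 0.142, SE 0.24) for C6, all without overlap of the groups. DESeq2 gave adjusted p = 0.00193, 0.00324 and 0.00926 for the 3 C1q chains. With CCl4 the same genes differed between the guides by -0.17 (adjusted p = 0.727) for C1qa, -0.04 (adjusted p = 0.948) for C1qb, -0.13 (adjusted p = 0.814) for C1qc, -0.19 (adjusted p = 0.757) for Cfp and -0.06 (adjusted p = 0.936) for C6, and all of these groups overlapped. Masp1 was lower in each sgBap1-CCl4 liver than in any NTC-CCl4 liver, with a log2 difference of -0.42 (adjusted p = 0.146, SE 0.11). Without the liver that held adipocyte RNA this difference was -0.299 (adjusted p = 0.281).

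Kupffer cells, the resident macrophages of the liver, are a main source of C1q. With vehicle, their markers differed between the guides in the same direction as these genes. All 7 Kupffer cell markers had a positive log2 difference between sgBap1-Veh and NTC-Veh livers (median 0.93), none was called, and their summed level was 161 to 262 CPM in NTC-Veh and 326 to 508 CPM in sgBap1-Veh livers. Clec4f, a lectin of resident Kupffer cells, was at 88.8 and 61.5 CPM in the vehicle livers with NTC and 169.8 and 116 with sgBap1, and 60.04, 51 and 78.7 in the CCl4 livers with NTC and 47.1, 63 and 65.4 with sgBap1. Its CCl4 and vehicle livers overlapped with NTC. Adgre1, the macrophage gene of F4/80, was at 11.1 and 8.17 CPM in the vehicle livers with NTC and 23.7 and 19.2 with sgBap1, and 26.1, 29.5 and 48.5 in the CCl4 livers with NTC and 25.9, 37.2 and 24.4 with sgBap1. With CCl4, 3 of the 7 markers were called higher in NTC livers (Cd5l, Marco and Adgre1) and none lower, with a median of 0.69, and the summed level was 438 to 865 CPM. In sgBap1 livers 1 was called higher (Marco) and 3 lower (Clec4f, Timd4 and Cd163), with a median of -0.47 and a summed level of 428 to 623 CPM after CCl4. A large part of the sums after CCl4 was Marco, at 154 to 381 CPM in NTC-CCl4 and 150 to 251 CPM in sgBap1-CCl4 livers. After vehicle Marco was at 6.1 to 23.7 CPM with NTC and 19.7 to 35.8 CPM with sgBap1. Cd5l was at 62 to 108.7 CPM in NTC-Veh and 186 to 319 CPM in NTC-CCl4 livers. The part of Kupffer cell number in the C1q values was not tested.

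**Figure D4:**
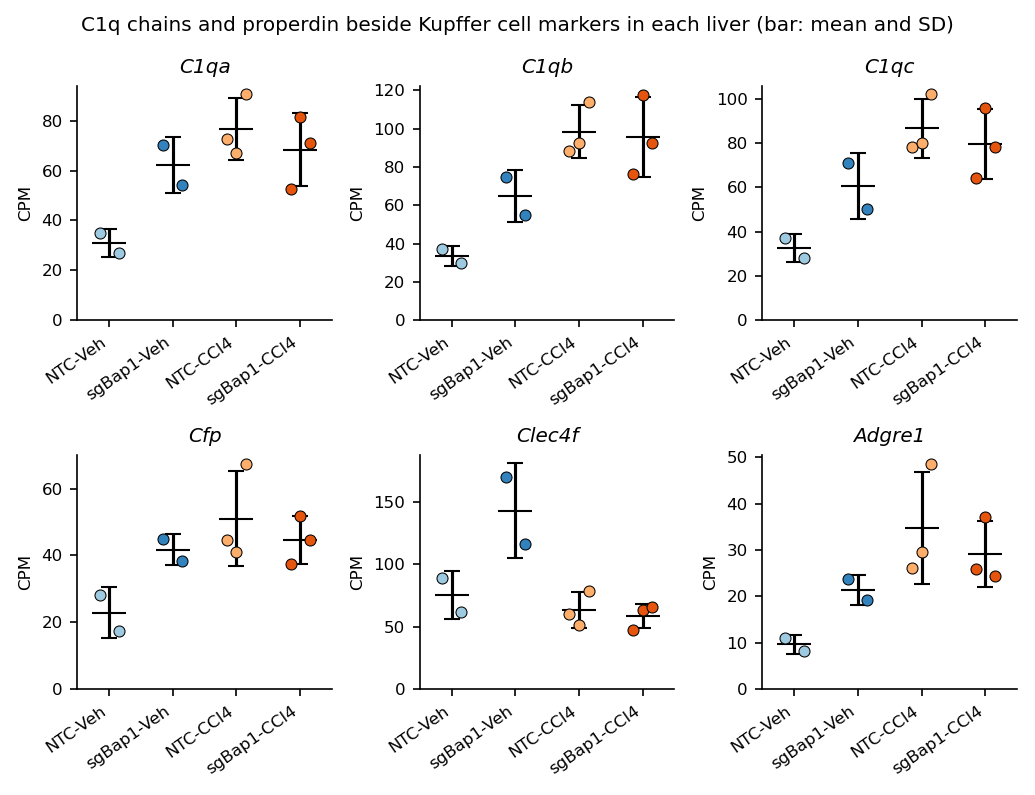
CPM (y axis) of the 3 C1q chains, of Cfp and of the macrophage markers Clec4f and Adgre1 in every liver by group, with the bar at the mean and the whiskers at 1 SD. C1q and Cfp are lowest in the NTC-Veh livers, and Clec4f is highest in the sgBap1-Veh livers.

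Whether CCl4 acted differently with the 2 guides was tested as the interaction, the CCl4 effect in sgBap1 livers minus that in NTC livers. No member was called, as among all tested genes, of which 0% were, and 7 members had an unadjusted p under 0.05 (10.4% of all genes). The interaction was -1.18 (adjusted p = 0.173, SE 0.30) for C1qa, -0.99 (adjusted p = 0.236, SE 0.29) for C1qb, -1.03 (adjusted p = 0.241, SE 0.30) for C1qc and -1.06 (adjusted p = 0.347, SE 0.37) for Cfp. DESeq2's Wald test called the 3 C1q chains (adjusted p = 0.01, 0.0376 and 0.0376), where it called 2.47% of all genes, so the call rests on the tool. By edgeR's test of the interaction, the members called with CCl4 in NTC livers alone (C1qa, C1qc, Cfp, Cd55 and Hc) are not shown to differ between the guides. Nor are those called in sgBap1 livers alone (C6, Fcna and Masp1). Of these members, DESeq2's Wald test called the interaction for C1qa and C1qc only. Each group enters a CCl4 comparison and a guide comparison, so these values share mice.

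Cfd, factor D, the protease that cleaves factor B, did not pass the filter on low counts. It was listed at 0 counts in 9 livers, which allows up to 0.112 CPM in the shallowest of them, and at 8434 counts, 144 CPM, in sgBap1-CCl4 replicate 2. In the same liver the adipocyte genes Adipoq, Plin1 and Retn were at 36.4, 34.5 and 17.7 CPM, and each was at or below 0.0425 CPM in the others. Fabp4 was at 256 CPM there and at 4.88 to 15.8 CPM elsewhere. Factor D is a product of fat, and the part of fat tissue in its value was not tested beyond these markers. Fits with no filter beyond 1 count, or with a mean of at least 10 counts, included Cfd and did not call it in any comparison. Without this liver 20 members in place of 22 were called with CCl4 in sgBap1 livers, the lost ones being C1qb and C8b, and still none between sgBap1-CCl4 and NTC-CCl4 livers. Among all tested genes the share called with CCl4 in sgBap1 livers went from 57% to 52.6%. Between sgBap1-CCl4 and NTC-CCl4 livers it was 0.143% without this liver.

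**Figure D5:**
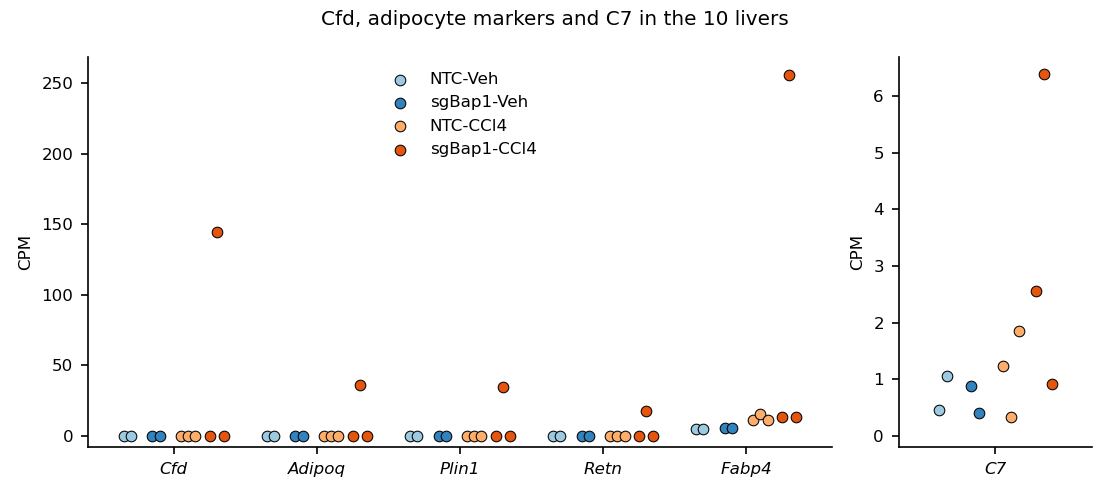
CPM (y axis) of Cfd, of 4 adipocyte markers and, on its own axis, of C7 in each of the 10 livers, coloured by group. For each gene the highest point is sgBap1-CCl4 replicate 2.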

How the data were processed

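RNA was extracted from fresh frozen liver and made into stranded mRNA libraries. Per the labels and the methods, the authors aligned reads to GRCm38 with STAR 2.7.6a and estimated counts with Salmon 1.4.0. The deposited table holds these expected counts per gene symbol, without normalization, and whether the counting used the strand is not given in the sources used here. Here the estimated counts (9.22% not whole) were rounded. edgeR 4.0.16 (R 4.3.3) was used to filter low genes (filterByExpr, 4 groups), to scale libraries by TMM and to fit all 4 groups in 1 robust quasi-likelihood model (glmQLFit, legacy = FALSE). Contrasts were tested two-sided with Benjamini-Hochberg adjustment over 17015 genes. The code was tested on simulated data. Alternatives included DESeq2 1.42.0. The 34 members, the further lists of complement and marker genes and the rule for naming genes (all members, other complement genes only where called between guides or among the largest CCl4 changes) were chosen with earlier results of these data known. The 4 called integrin and Cd93 genes were named in full after their values were seen, though the rule takes 3. Positions and shared 50-base stretches come from GENCODE vM21. The labels name no batch, and p-values measure the spread between these mice only.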

Additional observations from a re-analysis of the deposited data

Results flagged for a closer look

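For 2 members the sgBap1 livers lay on opposite sides of the NTC mean with the 2 treatments, in every mouse. The share of all tested genes that does so was not counted. C2 was at 128 and 120.1 CPM in sgBap1-Veh against 98.3 and 122 in NTC-Veh livers, and at 57.9, 47.8 and 61.8 in sgBap1-CCl4 against 73.6, 63.7 and 65.5 in NTC-CCl4 livers. Each sgBap1 liver was above the NTC mean with vehicle and below it with CCl4, and the interaction was -0.451 on the log2 scale (adjusted p = 0.428), so the difference did not pass edgeR's test. C2 also shares sequence with the read-through gene Gm20547, which was at 10.2 and 17.8 CPM in sgBap1-Veh livers. Cd55 was at 19.7 and 15.5 CPM in sgBap1-Veh against 13.8 and 11.9 in NTC-Veh livers. With CCl4 it was at 18.4, 22.5 and 18.9 CPM with sgBap1 against 23.1, 16.4 and 28.4 with NTC. Each sgBap1-CCl4 liver was below the mean of the NTC-CCl4 livers, but the liver with adipocyte RNA, at 22.5 CPM, only just. The interaction of Cd55 was -0.637 (adjusted p = 0.508), which also missed the threshold. The groups hold 2 or 3 mice, so no test for single outlying mice was made.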

How the results depend on the processing

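The groups hold 2 or 3 mice, which limits the precision, and depth sets the limit of up to 0.112 CPM for Cfd where it was listed at 0. The count of members called with CCl4 was 24 in NTC and 22 in sgBap1 livers, and 20 to 27 and 20 to 26 over the alternatives that kept all 10 mice. Each mouse left out in turn gave 20 to 26 and 19 to 23, where a group left with 1 mouse takes its spread from the others. Between the guides and for the interaction, the count was 0 under every alternative except DESeq2's Wald test, which called 5 members with vehicle, 1 with CCl4 and 3 for the interaction. The alternatives with a count of 0 called few genes of any kind. They called at most 0.892% of all tested genes with vehicle, 0.419% with CCl4 and 0.122% for the interaction. Their counts of 0 are therefore near the share among all genes. Scaling by library size alone turned Cfb in NTC livers to 0.311, Hc in NTC livers to 0.0543, and Cr1l to 0.263 in NTC and 0.293 in sgBap1 livers on the log2 scale. This follows from the shift of all genes under that scaling. The cause of DESeq2's further calls was not tested. A change of sign was counted only where either fit called the member. The replicate number as a block gave 23 and 21 members with CCl4 and 0 in the other comparisons. Same-numbered mice correlated at -0.23 to 0.14 in their deviations from the group means. In a group of 2 the deviations mirror each other, so these few values cannot decide whether the numbers pair the mice. The block lost Mbl1 in NTC (adjusted p = 0.0674) and C1qb in sgBap1 livers (adjusted p = 0.101). The quasi-likelihood method of edgeR 3 was added after seeing the data and gave 24 and 22.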

Other observations

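Ratios of members within a liver were kept for some pairs and moved for others. C1s1 and C1ra, whose products form a complex with C1q, stayed at a ratio per kb of 1.56 to 1.81 in vehicle and 1.41 to 1.76 in CCl4 livers, while the ratio of Cfb to C2, neighbours 85 bases apart on chromosome 17, was 10.7 to 14.1 in vehicle and 18.1 to 21.9 in CCl4 livers, without overlap. Both genes of that pair share sequence with Gm20547. The ratio of Mbl2 to Mbl1 was 8.37 and 9.22 in NTC-Veh, 9.42 and 10.1 in sgBap1-Veh, 5.36, 5.16 and 5.38 in NTC-CCl4 and 6.37, 9.8 and 7.81 in sgBap1-CCl4 livers. It was thus lower in the NTC-CCl4 livers than in any other liver, and the highest of the sgBap1-CCl4 values came from the liver with adipocyte RNA. These pairs were chosen after their values were seen, and none of the ratios was tested.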
